A study of Mus musculus with 14 samples.

Results

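The cytosolic ribosomal protein genes were followed in the livers of 14 TALLYHO mice. The family was taken as every protein-coding gene in the deposited count table that is named Rpl or Rps with a number (with or without the suffix a, x, y or l), together with *Rplp0*, *Rplp1*, *Rplp2* and *Rpsa* and without the Rps6k kinases. This rule gave 83 of the 55487 genes, of which 32 encode small-subunit and 51 encode large-subunit proteins. TALLYHO is an inbred strain that develops type 2 diabetes on a polygenic background, and the study used only males of this strain. Of these mice, 7 were given water by oral gavage (the vehicle group, named G1, G4, G6, G9, G10, G11 and G13) and 7 were given indole at 20 mg/kg (G2, G3, G5, G7, G8, G12 and G14), with 2 doses on each of 7 days and further doses around the metabolic tests that followed. Indole is a product of tryptophan breakdown by gut bacteria. The labels name no transgene or deletion, each library was made from the right liver lobe of 1 animal, and the study's methods give age only as a range over all its mice. The comparison asks whether the liver's ribosomal protein mRNAs differed after indole, in a study of indole and glucose control.

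Ribosomal proteins assemble with ribosomal RNA into the small subunit, which decodes the mRNA, and the large subunit, which joins amino acids. Each protein is needed in the same number of copies per ribosome, apart from the acidic stalk proteins, and hepatocytes make large amounts of them because the liver secretes much of the plasma's protein. Their mRNAs begin with a pyrimidine tract (the 5′ terminal oligopyrimidine motif), which lets the mTORC1 pathway switch their translation on and off without a change in mRNA level. The mRNAs are short and abundant, and over evolution reverse transcription has placed many intronless copies of them in the mouse genome. Most of those copies are annotated as pseudogenes.

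The libraries held 15197498 to 21060376 counted reads each, of which 200749 to 270703 fell on the family. Levels are given as CPM, the count scaled to a common library size by edgeR's trimmed mean of M values. The defining hepatocyte transcript was present in every library as the tissue label implies: *Alb*, which encodes serum albumin, had a mean of 64641 ± 6340 CPM after water and 64901 ± 10194 after indole (SD, n = 7 each). A bulk library cannot tell fewer cells of a type from less RNA per cell. Values after ± are SDs over the 7 mice of a group unless another n is named.

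Ribosomal protein genes took 1.19% to 1.48% of all counted reads after water (median 1.28%) and 1.18% to 1.56% after indole (median 1.37%). The group means were 1.31% ± 0.118 and 1.35% ± 0.136, so the difference of 0.0482 percentage points was smaller than the spread within either group. The lowest share was that of the indole mouse G12 (1.18%, 95% Wilson interval 1.17% to 1.18%) and the highest that of the indole mouse G5 (1.56%, 1.55% to 1.57%), and the groups overlapped over nearly the whole range. These intervals cover counting error only, and reads without molecular identifiers are not independent molecules. The reads were not concentrated in a few genes: the 5 most-read members held 17.6% of the family's reads and the 20 most-read held 48.7%.

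Among members, the level per length was highest for *Rplp1*, an acidic protein of the stalk that recruits elongation factors, at 615 ± 103 CPM per kilobase of exon (SD over 14 mice). It was followed by *Rpl36* (487 ± 65.2), *Rps29* (375 ± 69.9), *Rps15* (366 ± 47.5) and *Rpl4* (292 ± 22.0). In this order only *Rps29* and *Rps15* lay within 1 SD of each other. The lowest of the tested members were *Rpl35a* (3.11), *Rpl26* (2.37), *Rps18* (2.20), *Rpl30* (1.08) and *Rpl34* (0.420). The lengths are those of the deposited table, which equal the union of all annotated exons for 83 of 83 members and so include exons that the liver transcript may not use. On the CPM scale, not divided by length, 58 members had a mean of 100 CPM or more, 12 lay between 10 and 100, and 13 lay below 10. *Rpl4*, which lines the exit tunnel for the growing peptide, had the highest mean CPM and ranged from 516 to 669 in the vehicle group (median 560) and from 541 to 661 in the indole group (median 592). *Rpsa*, a small-subunit protein also known as the laminin receptor, ranged from 466 to 665 CPM (median 569.6) and from 506 to 715 (median 551). In both genes the groups overlapped.

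The low end held ordinary ribosomal proteins as well as paralogues. The 13 members below 10 CPM were the 3 tissue paralogues *Rpl3l*, *Rpl10l* and *Rpl39l* and 10 genes that encode ordinary ribosomal proteins: *Rpl13a*, *Rpl21*, *Rpl24*, *Rpl26*, *Rpl29*, *Rpl30*, *Rpl34*, *Rps2*, *Rps10* and *Rps18*. Over all 14 libraries, *Rpl24* was counted 10 times, *Rpl29* 28 times, *Rpl21* 98 times and *Rps10* 98 times, and none of these 4 passed the filter for testing. *Rps2*, at the entry of the mRNA channel, was counted 2132 times against 70741 for *Rps3*, its neighbour in the small subunit.

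**Figure D1:**
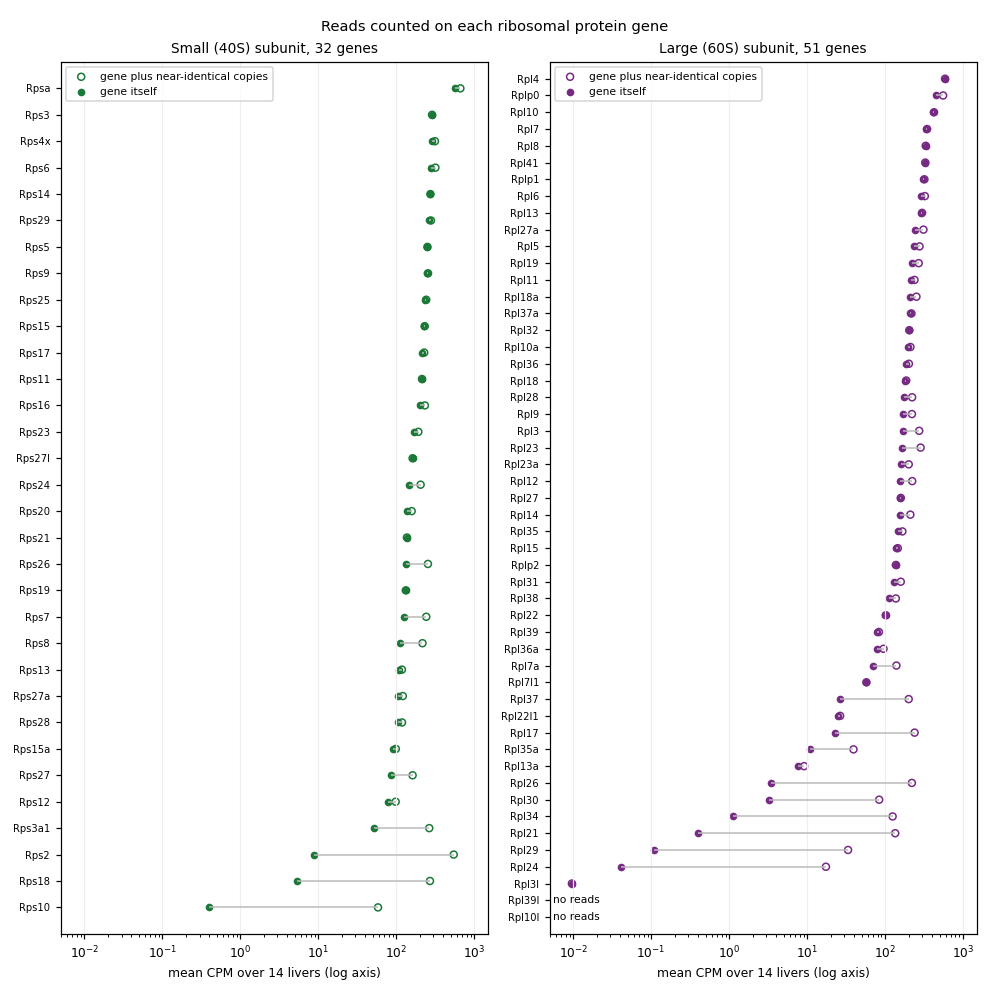
Mean CPM over 14 livers (log axis) of each of the 83 members, small-subunit genes on the left and large-subunit genes on the right. Filled points are the gene itself and open points add the reads of its near-identical copies. Of the 13 members below 10 CPM, all but *Rpl3l*, *Rpl10l*, *Rpl39l* and *Rpl13a* move above 10 CPM once the copies are added.

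Copies of the members' coding sequences were therefore looked for among annotated mouse transcripts (at least 95% identity over at least 80% of the coding sequence). Genes not annotated as pseudogenes were kept only if they had at most 3000 exonic bases. There were 561 such genes outside the family, for 74 of the 83 members, of which 551 are annotated as pseudogenes and 10 as protein-coding, and 387 of them had reads. Together they held 997052 reads beside 3271001 on the members, or 23.4% of the sum. In 13 members the copies held more reads than the gene itself. Adding the copies left 4 members below 10 CPM and raised the number at 100 CPM or more from 58 to 68. Reads on copies made up between 0.361% and 0.477% of all reads per mouse, with group means of 0.399% ± 0.0366 for vehicle and 0.412% ± 0.0396 for indole. The authors kept reads with a single best place in the genome, so a read that fits a gene and its copy equally well was not counted on either. Whether a read on a copy came from the copy or from the gene was not tested.

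The reference sequences show how little separates the pairs. They are those of the GRCm38 genome, and whether TALLYHO mice carry the same bases and copies was not tested. Below are 60-base stretches of coding sequence from 1 exon of each gene, 5′ to 3′ on the coding strand (GRCm38, GENCODE M21), chosen as the stretch with the most differences. Capitals mark the bases at which gene and copy differ.
Rpl21, chr5:146835640-146835699, plus strand: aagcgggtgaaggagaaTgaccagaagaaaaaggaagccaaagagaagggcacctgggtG
Rpl21-ps15, chrX:151215272-151215331, minus strand: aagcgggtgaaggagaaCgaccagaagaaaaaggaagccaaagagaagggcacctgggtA
Rpl34, chr3:130729084-130729143, minus strand: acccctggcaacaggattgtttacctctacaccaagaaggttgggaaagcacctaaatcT
Rpl34-ps1, chr6:71124682-71124741, plus strand: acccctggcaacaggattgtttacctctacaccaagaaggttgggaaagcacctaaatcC
Rpl30, chr15:34442706-34442765, minus strand: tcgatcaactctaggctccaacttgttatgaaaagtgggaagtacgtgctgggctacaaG
Gm12191, chr11:49678962-49679021, minus strand: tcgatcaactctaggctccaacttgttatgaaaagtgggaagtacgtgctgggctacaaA
Rpl37, chr15:5118567-5118626, plus strand: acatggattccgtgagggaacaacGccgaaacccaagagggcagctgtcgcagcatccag
Rpl37rt, chr5:115103238-115103297, minus strand: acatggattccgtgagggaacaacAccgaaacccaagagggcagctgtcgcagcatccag
Rps27, chr3:90213242-90213301, minus strand: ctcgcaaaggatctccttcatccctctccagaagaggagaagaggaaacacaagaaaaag
Rps27rt, chr9:114982642-114982701, minus strand: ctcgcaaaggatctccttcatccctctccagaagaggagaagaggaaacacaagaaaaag

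Over whole coding sequences, *Rpl21* and its processed pseudogene *Rpl21-ps15* differ at 3 of 483 bases, *Rpl34* and *Rpl34-ps1* at 2 of 354, *Rpl30* and *Gm12191* at 1 of 348 and *Rpl37* and the retrotransposed *Rpl37rt* at 1 of 294. *Rps27* and the retrogene *Rps27rt* do not differ in any of 255 bases. The reads of *Rps27* and *Rps27rt* were split at 21013 to 18618, or 53.0% on the gene, while in the other pairs most lay on the copy. *Rpl21*, which holds 98 reads, stood beside 32442 on *Rpl21-ps15*. *Rpl34*, a large-subunit protein, held 275 reads beside 30027 on *Rpl34-ps1*, and *Rpl26* held 832 beside 53082 on its processed pseudogene *Gm15772*. *Rps2* held 2132 reads and *Rps2-ps10* held 99694, the most of any copy. For *Rps18*, 1324 reads fell on the gene and 65044 on its 5 copies, of which *Rps18-ps6* held 40919.

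*Rpl13a*, which also takes part outside the ribosome in translational control, was the exception among the low genes, with 1864 reads on the gene and 390 on 2 copies. Of its exonic bases, 35.4% are shared on the same strand with other annotated genes (*Gm45713*, *Mir5121* and *Snord33*). The same held for 47.0% of the exonic bases of *Rpl24*, shared with *Gm28037*, and for 20.6% of those of *Rps10*, shared with *Gm49804*. Reads within such an overlap can belong to either gene. Across the 83 members, the mean CPM showed Spearman's rho of 0.0740 with the share of 100-base transcript windows found in no other gene and of -0.12 with the number of copies, so neither number orders the members.

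In some pairs the split of reads varied between mice more than the sum did. *Rps27*, a zinc-finger protein of the small subunit, was counted at 46.0 to 127 CPM after water (median 64.8) and at 56.8 to 144 after indole (median 92.9). Its share of the reads on *Rps27* and *Rps27rt* together ran from 31.6% in the vehicle mouse G1 and 32.7% in G6 to 68.7% in G9 and 68.3% in G10, and from 38.1% in the indole mouse G14 to 66.6% in G5. After group means were removed, log2(CPM + 0.5) of the gene and of its copies had a Pearson r of -0.55 over 14 mice, with within-group SDs of 0.46 for the gene, 0.43 for the copies and 0.23 for their sum. Only 1.63% of the 100-base windows of the *Rps27* transcript are found in no other gene.

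*Rpl37* was the most variable member, with a within-group SD of 0.97 on the same scale. It ran from 7.87 to 50.2 CPM after water (median 28.2) and from 4.74 to 45.6 after indole (median 26.5), and the low values were those of G6, G12 and G14. With the reads of its copies added, the SD was 0.20. *Rpl30*, with an SD of 0.80, ran from 0.867 to 10.7 CPM (median 3.36) in vehicle mice and from 1.07 to 4.76 (median 2.77) in indole mice, and its highest value, in G9, stood apart from the next vehicle mouse at 4.47. With its 12 copies the SD was 0.17. *Rpl34* had an SD of 0.48 alone and 0.19 with its copies. For these 3 members, those with the largest SDs, the sum over near-identical sequences was steadier than the gene's own row. Of the reads on the gene and its most-read copy, however, the gene held only 13.1% (*Rpl37*), 4.12% (*Rpl30*) and 0.908% (*Rpl34*). The sum is thus mostly the row of the copies, and its smaller SD cannot show whether those reads came from the gene.

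**Figure D2:**
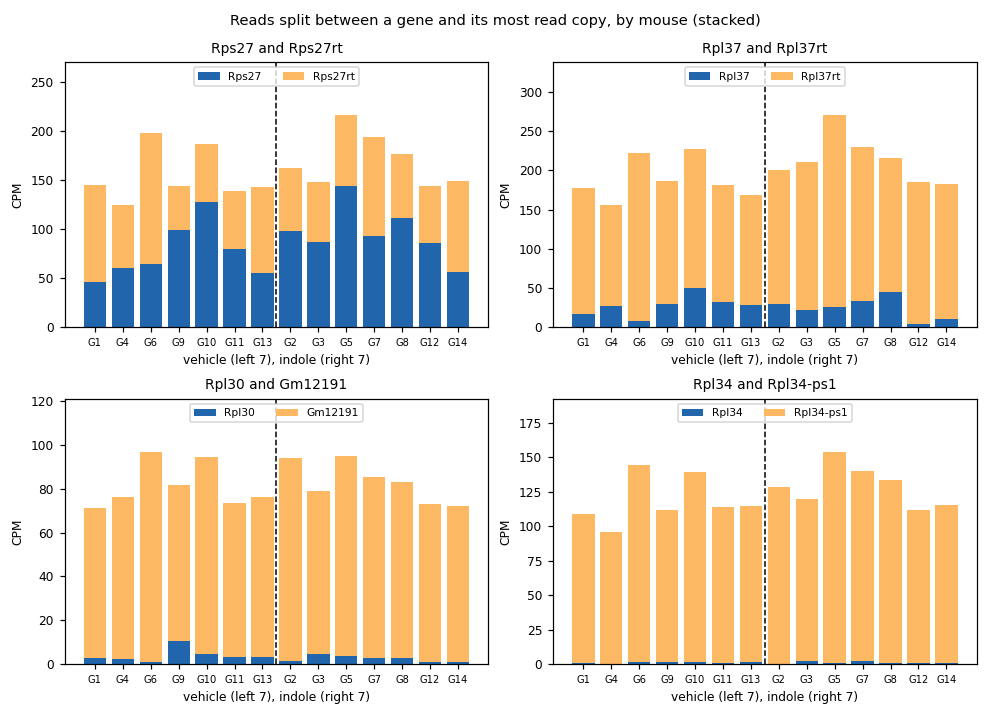
CPM in each mouse, vehicle on the left and indole on the right of each panel, of 4 genes (blue) and their most-read copy (orange), stacked. *Rps27* takes between 31.6% and 68.7% of its pair and *Rpl37* at most 22.1%, while the stacked heights vary less, for their size, than the blue parts.

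Some paralogues are known from other organs, *Rpl3l* from striated muscle and *Rpl10l* and *Rpl39l* from testis. In these livers *Rpl3l* had 2 reads in all, in 1 indole mouse, and *Rpl10l* and *Rpl39l* had 0, which allows up to 3 reads over the 14 libraries. Their parents were well counted. *Rpl3* averaged 165 ± 21.6 CPM after water and 171 ± 14.9 after indole, *Rpl10* 394 ± 41.8 and 419 ± 38.9, and *Rpl39* 77.8 ± 13.6 and 81.7 ± 8.63. The other paralogues were present. *Rpl7l1*, a nucleolar relative of *Rpl7* that acts in ribosome assembly, stood at 54.6 ± 4.40 and 59.5 ± 4.01 CPM beside 332 ± 42.8 and 340 ± 33.5 for *Rpl7*. *Rpl22l1* stood at 24.5 ± 5.06 and 25.5 ± 4.69 beside 99.5 ± 6.72 and 104 ± 11.6 for *Rpl22*. *Rps4l* is annotated as a pseudogene in these files and is not a member, and *Rps4x*, on the X chromosome, stood at 280 ± 27.0 and 293 ± 30.0 CPM.

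*Rps27l*, a paralogue known as a p53 target, was counted above its parent, and the other counted paralogues below theirs. It ran from 128 to 198 CPM in vehicle mice (median 149) and from 148 to 222 in indole mice (median 163), and per length it stood at 199 ± 31.9 CPM per kilobase (SD over 14 mice) against 82.97 ± 27.46 for *Rps27*. Unlike the retrogene, *Rps27l* can be told from *Rps27* by sequence, since the coding sequences differ at 61 of 255 bases and the stretch shown above differs at 19 of 60 (capitals mark the differences).
Rps27, chr3:90213242-90213301, minus strand: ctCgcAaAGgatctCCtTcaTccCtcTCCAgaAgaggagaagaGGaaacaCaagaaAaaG
Rps27l, chr9:66946831-66946890, plus strand: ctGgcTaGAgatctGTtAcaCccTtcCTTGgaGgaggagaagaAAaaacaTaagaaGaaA
With *Rps27rt* added, *Rps27* and its retrogene averaged 155 ± 27.0 CPM after water and 170.0 ± 27.1 after indole, beside 154 ± 25.4 and 172 ± 25.1 for *Rps27l*. Only 1.63% of the 100-base windows of *Rps27* are found in no other gene, against 100% for *Rps27l*, and reads that fit several places were not counted. The counts of *Rps27*, alone or with *Rps27rt*, may therefore be too low. They do not show which of the genes had more mRNA.

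Some ribosomal genes fall outside the naming rule. *Fau*, which encodes a ubiquitin-like fusion with the small-subunit protein eS30, ranged from 178 to 296 CPM, and *Rack1*, a scaffold on the small subunit, from 241 to 362. *Rpl36al* ranged from 0.196 to 1.30 CPM. *Fau* and *Rack1* had r of 0.89 and 0.90 with the mean of the family over 14 mice, whereas the barely counted *Rpl36al* had -0.28.

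The members varied together from mouse to mouse. After group means were removed, the median Pearson r over the 2850 pairs of the 76 tested members was 0.80 over 14 mice (quartiles 0.61 and 0.90), with 1438 pairs above 0.8 and 23 below 0. Pairs of small-subunit genes had a median r of 0.86, pairs of large-subunit genes 0.75, and pairs across the subunits 0.81. The first principal component held 49.8% of the family's variance. The points share their library, depth and scaling, so these values describe the libraries.

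The same mice were high or low for most members. In the indole mouse G5, 76 of 76 members lay above their group mean and the median deviation was 0.30 on the log2 scale. In the vehicle mice G10 and G6, 73 and 71 members lay above it, with medians of 0.27 and 0.23. At the other end, 0 members lay above it in G1 and 2 in G4, with medians of -0.20 and -0.24, and in the indole mice G12 and G14 2 and 3 members did, with -0.15 and -0.13. The remaining 7 mice lay between -0.12 and 0.07. Both groups thus held mice at either end, and the within-group SD of log2 CPM (prior count 2) of single members had a median of 0.19, with 69 of 76 below 0.3.

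The smallest SDs were those of *Rpl7l1* (0.11), *Rpl4* (0.11) and *Rpl5* (0.13), the last a partner of *Rpl11* and the 5S RNA in a particle that binds Mdm2. *Rpl5* ranged from 207 to 265 CPM in vehicle mice (median 221) and from 229.9 to 282 in indole mice (median 235). Steadiness was not the same as following the family. Members had a median r of 0.93 with the mean of the others, but *Rpl7l1* had 0.59 and *Rpl4* 0.52. In all, 9 members were below 0.6, and the other 7 were *Rpl30* (0.12), *Rpl37* (0.29), *Rpl34* (0.43), *Rpl13a* (0.48), *Rpl7a* (0.50), *Rpl35a* (0.51) and *Rpl26* (0.56). *Rpl32* (0.99) and *Rps16* (0.99) followed the others most closely.

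**Figure D3:**
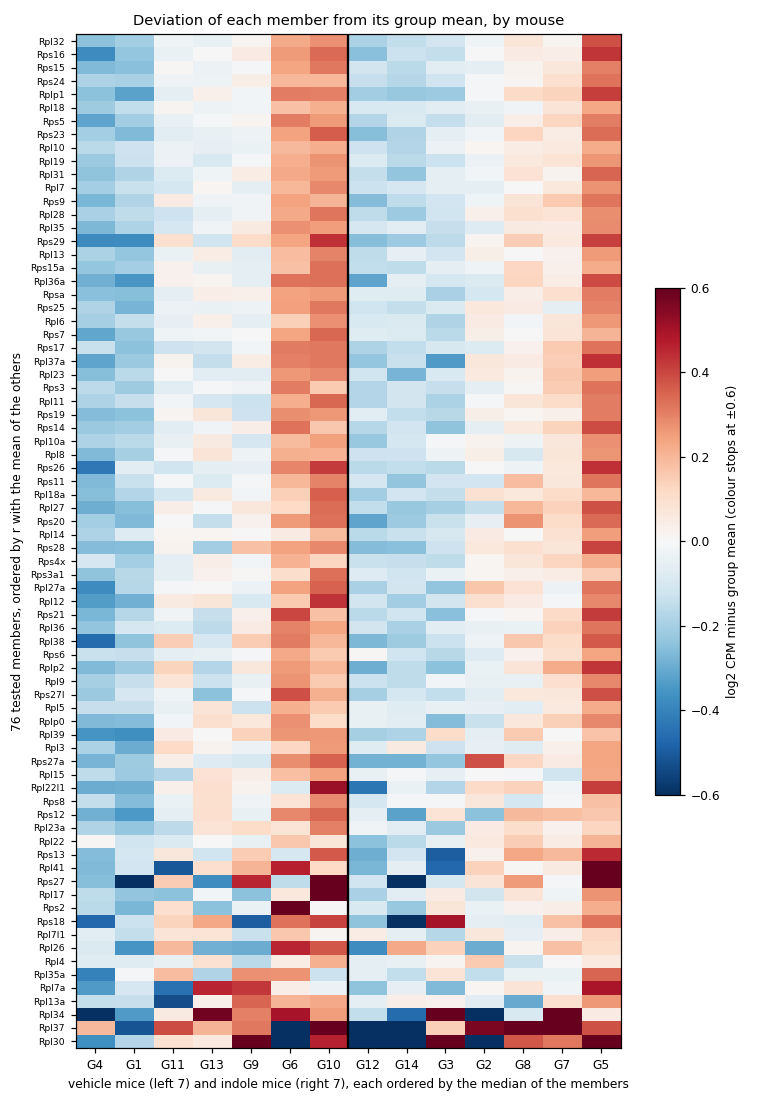
Log2 CPM of the 76 tested members minus the group mean, for 7 vehicle mice (left) and 7 indole mice (right), ordered by the family's median, with members ordered by their r with the mean of the others. Nearly all rows are blue in G4 and G1 and red in G6, G10 and G5, and the exceptions are the rows at the bottom, down to *Rpl30* (r = 0.12).

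Other large complexes moved with the family across mice. Pairs of nuclear genes of oxidative phosphorylation had a median r of 0.85, pairs of proteasome genes 0.72 and pairs of mitochondrial ribosomal protein genes 0.54, against 0.08 for genes of ribosome assembly in the nucleolus and -0.06 for RNA polymerase I genes, whose product is ribosomal RNA. Taken as medians per mouse, the family's deviation had r = 0.96 (Spearman's rho 0.90) with the mitochondrial ribosome, 0.90 (0.82) with oxidative phosphorylation, 0.83 (0.84) with the proteasome and 0.50 (0.51) with ribosome assembly, over 14 mice. Without the 2 mice farthest from the median of the other measure, these values of r were 0.93, 0.83, 0.88 and 0.52. Translation factors whose mRNAs also carry the pyrimidine tract, led by *Eef1a1* (the factor that brings charged tRNA to the ribosome), had r = 0.96 by their median, though their pairs had a median r of 0.40.

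Transcript length moved with the same axis. The median deviation of 841 other tested genes with at most 1000 exonic bases had r = 0.94 (rho 0.88) with that of the family, and that of 5067 genes with at least 5000 bases had r = -0.93 (rho -0.92). The r with the scaling factor was -0.65, with the total count -0.43 and with the share of reads on the mitochondrial genome -0.08. The part of RNA quality, library preparation or depth in the shared movement was not tested.

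The 10 genes outside the family whose pattern was most like its mean included 3 of the copies described above, *Gm15772* (r = 0.97), *Rpl34-ps1* (0.96) and *Rpl28-ps1* (0.95). The others were *Ost4* (0.96), a small subunit of the oligosaccharyltransferase, *Uqcr11* (0.96) and *Uqcrq* (0.96) of respiratory complex III, *Commd1* (0.96), *Mrfap1* (0.95) and the genes of 2 secreted liver proteins, *Apoh* (0.95) and *Proc* (0.95). Over the 12577 other tested genes the median r was -0.05, and 75 exceeded 0.9.

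**Figure D4:**
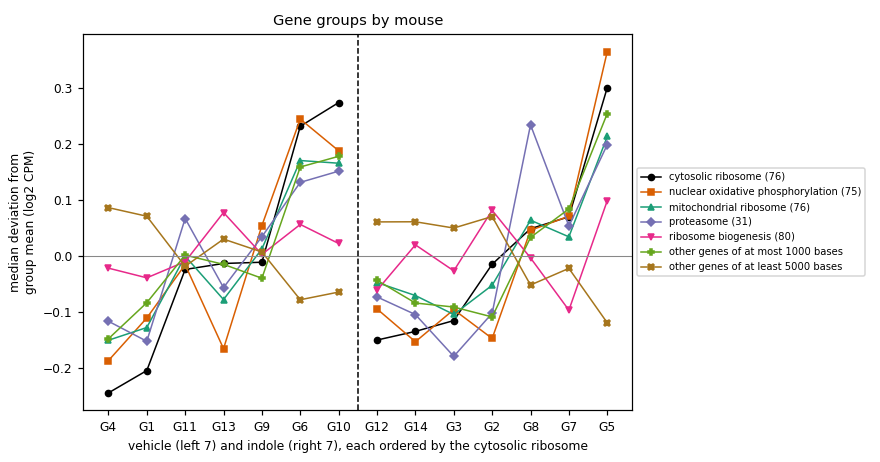
Median deviation from the group mean (log2 CPM) of each gene group in each mouse, with vehicle mice on the left and indole mice on the right, ordered by the cytosolic ribosome. The cytosolic ribosome runs from -0.24 in G4 to 0.30 in G5, short genes follow it and long genes run the other way.

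The promoters of the members were also inspected, and whether they bear on the shared movement was not tested. RefSeq promoter windows on GRCm38.p6 were found by symbol for 63 of the 83 members, and the first window was used where a gene had several. The members' windows had a median GC content of 57.0%, against 52.7% for all 27025 promoters, which were not limited to genes expressed in liver. The part of GC content in the shares below was not tested. The letters CTTTC, which can be part of a pyrimidine tract, lay on the sense strand within 20 bases of the annotated start in 18 of 63 members (28.6%) and in 5.38% of 27025 promoters. A run of at least 8 pyrimidines that began within 10 bases of the start was found in 33.3% of members and 10.5% of all promoters. CCGGAAG, a core bound by ETS factors such as GABPA, lay on either strand of the window in 39.7% of members and 9.12% of all. AAGATGGC, a core of the YY1 motif, lay on either strand in 7.94% and 2.88%, and TATAAA on the sense strand upstream of the start in 1.59% and 2.22%. The stretches below run from 70 bases before the annotated start to 20 bases after it, with any of these motifs in capitals, for 2 steady members (*Rpl4* and *Rpl5*), 1 that followed the family closely (*Rps15*), *Rps27* and the paralogues *Rps27l* and *Rpl7l1*.
Rpl4, chr9:64173317-64173406, plus strand: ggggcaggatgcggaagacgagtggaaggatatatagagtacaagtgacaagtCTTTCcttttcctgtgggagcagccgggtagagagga
Rpl5, chr5:107900458-107900547, plus strand: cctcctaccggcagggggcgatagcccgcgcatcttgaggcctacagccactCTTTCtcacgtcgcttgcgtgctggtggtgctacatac
Rps15, chr10:80292361-80292450, plus strand: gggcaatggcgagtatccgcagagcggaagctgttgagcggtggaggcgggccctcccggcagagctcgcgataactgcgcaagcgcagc
Rps27, chr3:90213629-90213718, minus strand: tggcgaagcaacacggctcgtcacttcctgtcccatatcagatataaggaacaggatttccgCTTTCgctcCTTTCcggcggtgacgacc
Rps27l, chr9:66946016-66946105, plus strand: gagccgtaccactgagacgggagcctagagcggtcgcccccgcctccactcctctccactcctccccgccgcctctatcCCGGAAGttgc
Rpl7l1, chr17:46782637-46782726, minus strand: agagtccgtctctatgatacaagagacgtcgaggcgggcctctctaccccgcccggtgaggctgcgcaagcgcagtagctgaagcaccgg
CTTTC was found near the annotated start in *Rpl4*, *Rpl5* and *Rps27* but not in the others shown, and a window in which no match was found says only that these letters are not there.

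Indole and vehicle mice were compared with edgeR's quasi-likelihood test over 12653 genes, and 76 members passed its filter on low counts. Of these 76, 0 had an unadjusted *p* below 0.05, where 3.81% of all genes tested did, and 0 had an adjusted *p* below 0.05, as did 0.0% of all genes. DESeq2 and limma voom also gave 0 members with an unadjusted *p* below 0.05. Leaving out 1 mouse gave 4 members without the vehicle mouse G6, 2 without the vehicle mouse G9, 2 without the vehicle mouse G10, 1 without the indole mouse G3 and 0 without each of the others. Most fitted differences were small and on the higher side. Of the 76, 69 had a log2 fold change above 0, where 51.3% of all genes tested did, and the median was 0.08 beside 0.00 for all genes. The members share their mice and move together, so these 69 are not separate observations. The SE of a member's log2 fold change was worked out from the same quasi-likelihood test and had a median of 0.10. That 0 of the 76 differences exceeded 2 SE therefore restates that test. The median was 0.03 without the indole mouse G5, in which all tested members were high, and 0.04 and 0.05 without the low vehicle mice G1 and G4, but 0.12 and 0.13 without the high vehicle mice G6 and G10. With 1 surrogate variable in the model it was 0.03.

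The largest differences in the higher direction were those of *Rps27* (log2 fold change 0.34, SE 0.24), *Rpl13a* (0.22, SE 0.13), *Rpl35a* (0.22, SE 0.12), *Rps12* (0.17, SE 0.11) and *Rps21* (0.16, SE 0.11), of which *Rps12* and *Rps21* are small-subunit proteins like *Rps27*. Their exact permutation tests of log2 CPM, two-sided over all relabellings of the mice, gave *p* = 0.153, 0.101, 0.0810, 0.205 and 0.202. *Rpl35a*, a large-subunit protein whose human gene is among those mutated in Diamond-Blackfan anaemia, ran from 7.52 to 12.1 CPM after water (median 9.94) and from 10.5 to 14.9 after indole (median 11.4). All 7 indole mice lay above the vehicle median, yet the ranges overlapped. *Rpl13a* ran from 4.71 to 8.79 CPM (median 7.01) and from 6.53 to 9.69 (median 8.24), with 6 of 7 indole mice above the vehicle median. *Rps12* ran from 58.1 to 93.7 CPM (median 71.4) and from 66.5 to 95.1 (median 87.9), and *Rps21* from 106 to 169 (median 126) and from 120.2 to 192 (median 142). In each the highest vehicle mouse lay inside the indole range. Single mice moved some of these values: *Rps27* had 0.22 without the indole mouse G5 and 0.52 without the vehicle mouse G10, *Rps21* had 0.08 without G5, and *Rpl13a* had 0.15 without the vehicle mouse G11.

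*Rpl7l1*, the steadiest member, had a log2 fold change of 0.12 (SE 0.07). It ran from 49.3 to 60.9 CPM after water (median 55.2) and from 52.8 to 64.8 after indole (median 61.1), and 6 of 7 indole mice lay above the vehicle median. Its exact permutation test gave *p* = 0.0495 before any adjustment, the smallest among the 76 members, while edgeR gave it an adjusted *p* = 0.998 over all genes, as it did for every member.

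The largest differences in the lower direction were all in genes with abundant copies. Except in *Rpl7a*, the copies held more reads than the gene, which was so in 13 of the 83 members. Of the genes with the largest higher differences, this held for *Rpl35a* (2697 reads beside 6924 on its copies). It did not hold for *Rps27* (21013 beside 18632), *Rps12* (19403 beside 4726), *Rps21* (33454 beside 96) or *Rpl13a* (1864 beside 390). In all, 72 of the 83 members had a copy with any reads. Whether copies bear on the direction of a difference was not tested. *Rpl30*, an RNA-binding large-subunit protein, had a log2 fold change of -0.69 (SE 0.47), *Rpl37* of -0.16 (SE 0.46), *Rpl17* of -0.13 (SE 0.15), *Rpl7a* of -0.05 (SE 0.15) and *Rps2* of -0.04 (SE 0.13). Without the vehicle mouse G9, *Rpl30* had -0.21. Exact permutation tests of all mice gave *p* = 0.325, 0.635, 0.745, 0.874 and 0.883 in that order. *Rpl17*, at the tunnel exit, ran from 19.5 to 41.4 CPM after water (median 20.9) and from 19.1 to 26.3 after indole (median 21.5), and the value of 41.4 was that of G10 alone. *Rpl7a* ran from 50.7 to 94.8 CPM (median 67.6) and from 56.4 to 95.1 (median 66.7), and *Rps2* from 7.16 to 13.4 (median 8.45) and from 7.26 to 9.95 (median 8.68). The groups overlapped in all 5. When the reads of the copies were summed into each member's row, the 5 fold changes became 0.03 (SE 0.09), 0.18 (SE 0.10), 0.08 (SE 0.09), 0.05 (SE 0.10) and -0.01 (SE 0.09), so that 4 of the 5 changed sign. Except in *Rpl7a*, most of the summed reads lay on copies, so these values are mostly those of the copies. *Rps27* moved from 0.34 to 0.14 (SE 0.11). The row of *Rpl37rt* itself stood at 161 ± 28.1 CPM after water and 189 ± 26.2 after indole (0.23, SE 0.10), with an unadjusted edgeR *p* below 0.05 but an exact permutation *p* = 0.0641. Over the 12502 genes tested in that form, 80 members could be tested and 0 of them had an unadjusted *p* below 0.05, where 3.82% of all genes did. Of the 80, 78 were above 0, where 51.2% of all genes were, with a median of 0.08 and a range from -0.03 (*Rpl41*) to 0.21 (*Rpl24*). The wide tails of the single rows, from -0.69 to 0.34, thus narrowed when the counted reads of near-identical copies were added. Reads that fit a gene and its copy equally well are missing from the sums as well.

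**Figure D5:**
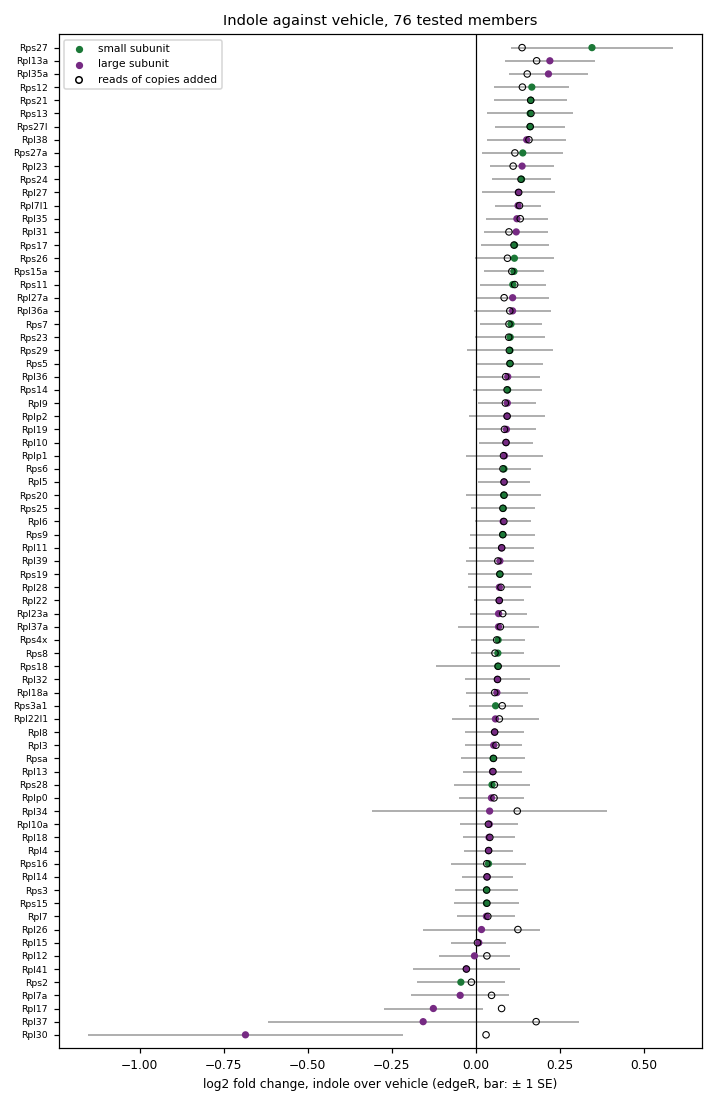
Log2 fold change, indole over vehicle, of the 76 tested members (filled points, bars ± 1 SE from edgeR), coloured by subunit, with open points for the value after the reads of near-identical copies were added. The points lie close to 0.08 for most members, and the open points of *Rpl30*, *Rpl37* and *Rpl17* lie above 0 although the filled points lie below it.

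The stalk proteins and other well-known members gave values near the family's median. *Rplp0*, which anchors the stalk, had a log2 fold change of 0.05 (SE 0.10), *Rplp1* of 0.08 (SE 0.11) and *Rplp2* of 0.09 (SE 0.11). *Rplp1* ranged from 236 to 364 CPM in vehicle mice (median 291) and from 267 to 416 in indole mice (median 310). *Rps6*, the substrate of the S6 kinases and the usual readout of mTORC1 activity at the protein level, had 0.08 (SE 0.08), and *Rpsa* had 0.05 (SE 0.10). *Rps6* ranged from 242 to 313 CPM (median 259) and from 252 to 333 (median 285), with overlapping groups. Among the paralogues, *Rps27l* had 0.16 (SE 0.10, exact permutation *p* = 0.176) and *Rpl22l1* 0.06 (SE 0.13, exact permutation *p* = 0.685). The data hold mRNA only and say nothing of phosphorylation or translation.

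The ratio between the subunits varied little between mice. Small-subunit reads per kilobase made up 0.631 to 0.682 times those of the large subunit in vehicle mice (0.659 ± 0.0191) and 0.657 to 0.689 times in indole mice (0.672 ± 0.0115). The groups overlapped and differed by 0.03 on the log2 scale against a within-group SD of 0.03. The sums ran over 32 small-subunit and 51 large-subunit genes and left out reads on copies, so the ratio itself does not measure the balance of the subunits. Of the small-subunit genes tested, 30 of 31 had a log2 fold change above 0 (median 0.09), and of the large-subunit genes 39 of 45 (median 0.07).

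Related gene groups were compared in the same fit, and a gene is said below to pass where its unadjusted edgeR *p* was below 0.05, as for 3.81% of all genes. Of 76 mitochondrial ribosomal protein genes tested, 71 were above 0 (median 0.07) and 1 passed, *Mrps18c*, at 14.4 ± 1.14 CPM after water and 17.1 ± 3.20 after indole (0.25, SE 0.11, exact permutation *p* = 0.0478). Their most abundant member, *Mrpl12*, had 0.02 (SE 0.07). Of 75 nuclear genes of oxidative phosphorylation, 70 were above 0 (median 0.11) and 0 passed, with 0.03 (SE 0.08) for *Atp5b*, a catalytic subunit of ATP synthase. Of 31 proteasome genes, 29 were above 0 (median 0.07) and 0 passed, with 0.01 (SE 0.08) for *Psmd2*. Of 20 translation factors with the pyrimidine tract, 18 were above 0 (median 0.07) and 0 passed, and *Eef1a1* stood at 3684 ± 267 CPM after water and 3880 ± 203 after indole. Of 27 initiation factors, 18 were above 0 (median 0.04) and 0 passed, with -0.02 (SE 0.06) for *Eif4g2*.

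The machinery that builds ribosomes was read in 3 lists. Of 80 genes of ribosome assembly, 48 were above 0 (median 0.02) and 2 passed. These were *Nop10*, a part of the box H/ACA particles that modify ribosomal RNA (0.21, SE 0.09, exact permutation *p* = 0.0245), and *Utp18*, a part of the small-subunit processome (0.23, SE 0.11, exact permutation *p* = 0.0524). *Ncl*, the nucleolar protein nucleolin and the most abundant of them, had 0.06 (SE 0.07). Of 20 polymerase I genes, 14 were above 0 (median 0.06), and 1 passed in the lower direction: *Ubtf*, the factor that keeps ribosomal DNA open, at 45.3 ± 3.95 CPM after water and 40.1 ± 3.72 after indole (-0.17, SE 0.08, exact permutation *p* = 0.0280). Of 33 regulators of ribosome production, 9 were above 0 (median -0.06) and 0 passed, with -0.08 (SE 0.08) for *Eif4ebp2*, a translation repressor under mTORC1. No gene of these lists passed after adjustment over all genes.

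Markers of other cells were read beside the family, since a shift in cell makeup would move bulk values. All 5 tested erythroid genes passed in the higher direction. The most abundant, *Hba-a1*, stood at 150 ± 39.9 CPM after water and 297 ± 187 after indole (exact permutation *p* = 0.0600). The exact permutation *p* was 0.0600 for *Hbb-bt*, 0.0466 for *Hba-a2*, 0.0367 for *Hbb-bs* and 0.0216 for *Alas2*. The summed level of the list ran from 204 to 384 CPM in vehicle mice and from 263 to 1094 in indole mice. Across mice *Hba-a1* had r = 0.07 with the mean of the family. Of 12 macrophage genes, 11 were above 0 and 0 passed, with sums of 125 to 298 and 150 to 548 CPM, and *Clec4f*, their most abundant gene, had r = -0.25 with the family. All 9 endothelial genes were above 0 and 1 passed, *Clec4g* (0.37, SE 0.14, exact permutation *p* = 0.0332). Of 9 stellate cell genes 3 were above 0 and 1 passed, *Col1a1* (-0.67, SE 0.26, exact permutation *p* = 0.0117), and of 5 cholangiocyte genes 0 were above 0 (median -0.34) and 1 passed, *Krt19* (-0.94, SE 0.29, exact permutation *p* = 0.0169), both in the lower direction. None of 10 T and NK cell genes could be tested, and 0 passed of the 2 B and plasma cell genes (2 above 0) and the 6 proliferation genes (1 above 0) that could. Among 9 hepatocyte genes 3 were above 0 and 1 passed, *Ttr*, which encodes the thyroid hormone carrier transthyretin, at 4800 ± 588 CPM after water and 5654 ± 424 after indole (0.24, SE 0.08, exact permutation *p* = 0.00758). *Ttr* had r = 0.81 with the family over 14 mice. The part of these cells in the family's values was not tested beyond these correlations.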

How the data were processed

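Right-lobe liver RNA from 14 TALLYHO mice, 7 per group by their labels, was sequenced by the authors as strand-specific polyA libraries. The authors used HISAT2 and the GRCm38 genome, discarded reads that mapped to several places, and deposited raw counts for 55487 genes. The counting tool is not given in the sources used here. Counts were tested with edgeR 4.0.16 in R 4.3.3 (TMM, filterByExpr, robust quasi-likelihood fit, Benjamini–Hochberg adjustment over 12653 genes). DESeq2 1.42.0, limma 3.58.1 (voom) and sva 3.50.0 served as alternatives, as did other scalings and filters and leaving out each mouse. Correlations used log2 CPM (prior count 2). Copies were found with BLAST 2.17.0 in GENCODE M21 transcripts, and the sum over copies was added after the data had been seen. No *p* is given for values summed over the family. The named genes were those at the extremes of level, difference and spread, all paralogues with their parents, and listed genes, of which 1 is not reported here. Members and lists were chosen with earlier results of these data known. On simulated counts, the edgeR procedure recovered 162 of 200 genes that had been raised or lowered, with 3 false calls. The fitted log2 fold change of those raised had a median of 1.04, so the simulation says nothing of changes as small as those of the family. No batch is labelled, and *p* values cover the spread between these mice.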

Additional observations from a re-analysis of the deposited data

Results flagged for a closer look

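Of 70 sets of 7 mice examined (the named genes, the share of reads on the family and on copies, and the subunit ratio, each in both groups), 8 held a mouse whose gap to its nearest neighbour exceeded Dixon's 95% limit for 7 samples. Chance alone gives about 1 in 20 for independent sets, but these are not: the members move together, and some were named for their large spread or difference, so the count of 8 cannot be read against that rate. The indole mouse G5 was the highest of its group for *Rpl7a* (95.1 CPM, next 71.5, ratio 0.611), *Rps27l* (222 against 179, 0.590), *Rpl5* (282 against 252, 0.583) and *Rpl35a* (14.9 against 12.4, 0.573). The vehicle mouse G10 was the highest for *Rpl17* (41.4 CPM against 24.2, 0.784) and *Rpl22l1* (34.6 against 25.9, 0.579). The vehicle mouse G9 was the highest for *Rpl30* (10.7 CPM against 4.47, 0.633), and the vehicle mouse G6 for *Rps2* (13.4 against 9.30, 0.657). G5, G6 and G10 were also the 3 mice with the highest median of the whole family.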

How the results depend on the processing

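With all 14 mice, 0 members had an unadjusted *p* below 0.05 under edgeR, DESeq2, limma voom, 3 other scalings, 2 other filters, the fit that was not robust, 1 surrogate variable and the sum over copies. Leaving out 1 mouse gave between 0 and 4 members. There were 4 without the vehicle mouse G6 (*Rps27l*, *Rps21*, *Rpl7l1* and *Rpl35a*), 2 without G9 (*Rpl35a* and *Rpl13a*), 2 without G10 (*Rps15a* and *Rps27*) and 1 without the indole mouse G3 (*Rpl7l1*). The median log2 fold change stayed above 0 in all 24 alternatives, from 0.03 to 0.13. The difference in the share of reads stayed between 0.0139 and 0.0775 percentage points, the median pairwise r between 0.71 (total counts only) and 0.87, and the difference between groups in the log2 subunit ratio between 0.02 and 0.04. The number of members above 0, 69 of 76 with all mice, was 54 without the indole mouse G5, 64 and 65 without the vehicle mice G4 and G1, and 58 with 1 surrogate variable. The 5 members with the largest difference in each direction were followed one by one, and 5 of these 10 changed sign. All 5 were in the lower direction, and 2 of them were near 0 with all mice, *Rpl7a* (-0.05) and *Rps2* (-0.04). With copies added, the log2 fold change was 0.076 for *Rpl17*, 0.030 for *Rpl30*, 0.18 for *Rpl37* and 0.046 for *Rpl7a*. Leaving out 1 mouse gave -0.18 to 0.059 for *Rpl17* (above 0 without the vehicle mouse G10), -0.37 to 0.054 for *Rpl37* (above 0 without G10, and 0.031 without the indole mouse G12), -0.14 to 0.038 for *Rpl7a* (above 0 without the vehicle mouse G13, and 0.032 without G9) and -0.088 to 0.084 for *Rps2* (above 0 without the vehicle mouse G6), and -0.92 to -0.21 for *Rpl30*. The cause was not tested. No paired analysis was possible because the groups share no replicate number. Under the main filter, *Rpl21*, *Rpl24*, *Rpl29* and *Rps10* had too few reads of their own and could be tested only with their copies added. Without a filter on low counts, 81 members were tested on their own reads, these among them.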
